A study of Mus musculus with 3 samples.

Results

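Of the 19301 predicted N6-methyladenosine (m6A) sites deposited for the mouse macrophage line RAW264.7, 408 lay in the 5′ untranslated region (5′ UTR) of a protein-coding transcript. They made up 2.11% of the list (95% Wilson interval 1.92 to 2.33%) and fell in 273 genes. A site was counted here when it lay in the 5′ UTR of the transcript with the longest coding sequence (CDS) of its gene, on the same strand, in GENCODE M21 on GRCm38. Sites within more than 1 protein-coding gene on their strand, 651 of the list, were left out, and 16 of these lay in a 5′ UTR of at least 1 of the genes. RAW264.7 is an established mouse line, although the series' design text calls it human. Its polyadenylated RNA went through miCLIP2, which crosslinks an m6A antibody to RNA by UV light and maps the bound adenosines, in 3 untreated replicates. The deposited list pools the replicates and gives 1 m6Aboost prediction score per site, from 0.5 to 1, which is a classifier output and not a methylation level. The list holds no read counts, so the depth and the spread between replicates behind a site are unknown, and the intervals given here cover counting error only. The classifier reads the bases around the adenosine, whether it overlaps a 5′ UTR, CDS or 3′ UTR, the strength of the peak relative to the others of its transcript, and the count of C-to-T transitions, so motif, region and score are not independent of one another.

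Most m6A in mRNA is laid down by the METTL3 and METTL14 methyltransferase complex at DRACH motifs (D is A, G or T, R is A or G, and H is A, C or T), and the exon junction complex keeps it away from splice junctions. In 5′ UTRs, m6A has been linked to initiation without the cap-binding complex through eIF3, to translation of heat shock mRNAs when YTHDF2 shields the mark, and to start site choice at upstream open reading frames such as those of Atf4. The adenosine next to the cap can carry a related mark, m6Am, which m6A antibodies also bind.

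The 5′ UTR was the sparsest of the 3 exonic regions. The CDS held 9503 sites (49.2% of the list, 48.5 to 49.9%) and the 3′ UTR 8013 (41.5%, 40.8 to 42.2%). Over the 4665 genes with at least 1 site in these regions, this came to 0.369 sites per kb of 5′ UTR, 1.04 per kb of CDS and 1.11 per kb of 3′ UTR. Only 273 of those genes, 5.85% (5.21 to 6.56%), had a site in the 5′ UTR. The lower density was also seen per motif. Of 15511 DRACH adenosines in the 5′ UTRs of these genes, 384 were in the list, 2.48% (2.24 to 2.73%). The share was 4.61% in the CDS (4.52 to 4.71%) and 5.07% in the 3′ UTR (4.96 to 5.18%). The differences were -2.14 points from the CDS (95% Newcombe interval -2.39 to -1.87) and -2.59 points from the 3′ UTR (-2.85 to -2.31). The size of these gaps depends on the minimum score of the list, 0.5. A minimum of 0.7 would leave 86 sites of the 5′ UTR, 4738 coding sites and 5612 of the 3′ UTR. These are 21.1%, 49.9% and 70.0% of each group, so the ratios of site density would be wider. Listed shares were not recomputed at other minimum scores. How much of the gaps came from read coverage along the transcripts, or from the classifier's use of the region, was not tested.

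Exon length separated the 5′ UTR from the CDS. In exons of up to 200 nt, 0.743% of 5′ UTR DRACH adenosines were listed (0.515 to 1.07%) and 0.636% of those in the CDS (0.589 to 0.687%), a difference of 0.107 points whose interval spanned 0 (-0.127 to 0.439). In exons over 400 nt the shares were 3.91% (3.50 to 4.38%) and 11.7% (11.5 to 12.0%), so the CDS share was 3.00 times that of the 5′ UTR. The distance to the nearest splice junction split the regions in the same way. Within 100 nt of a junction, 1.21% of 5′ UTR DRACH adenosines were listed against 1.33% in the CDS, a difference of -0.129 points (-0.391 to 0.199). Beyond 200 nt from a junction it was 3.49% (3.07 to 3.97%) against 13.5% (13.1 to 13.8%). A difference from the CDS was thus not detectable in short exons and next to junctions, and the 5′ UTR fell behind in long exons and away from junctions. Against the 3′ UTR the share was lower in each class of exon length and junction distance. The 3′ UTR share was 9.28 times that of the 5′ UTR in exons of up to 200 nt, 7.90 times in those from there up to 400 nt and 1.27 times beyond, and 8.70 times within 100 nt of a junction and 1.28 times beyond 200 nt. The gap to the 3′ UTR was thus widest as a ratio where that to the CDS was not detectable.

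The motif GGACT stood out among the 5′ UTR sites. It held 145 of the 408 sites, 35.5%, against 19.1% of CDS sites and 19.0% of 3′ UTR sites. The excess was 16.4 points over the CDS (11.9 to 21.2) and 16.5 points over the 3′ UTR (11.9 to 21.3). GAACT followed with 59 sites, AGACT with 44, GGACA with 41, and GGACC and TGACT with 27 each. GGACA was less frequent than in the CDS, by -4.38 points (-7.03 to -1.01). DRACH motifs together held 385 sites, 94.4% (91.7 to 96.2%), a difference of 1.78 points from the CDS whose interval spanned 0 (-0.946 to 3.71) and of 3.26 points from the 3′ UTR (0.514 to 5.22). GGACT was also more common in the sequence itself. It made up 8.63% of the DRACH adenosines in 5′ UTRs (8.20 to 9.08%), 5.79% in the CDS and 5.22% in 3′ UTRs. GGACC was the opposite case. It made up 11.6% of 5′ UTR DRACH adenosines and 7.19% of those in the CDS, yet only 6.62% of the 5′ UTR sites.

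The listed share of each motif showed where the 5′ UTR fell short. At GGACT, 10.8% of the 5′ UTR adenosines were listed (9.21 to 12.5%) against 16.5% in the CDS, 1.53 times as many. The ratio of CDS to 5′ UTR was 1.73 at GAACT, 2.09 at AGACT and at TGACT, 2.56 at GGACA and 3.63 at GGACC, where 1.49% were listed in the 5′ UTR (1.03 to 2.17%) and 5.42% in the CDS. Against the CDS, the shortfall as a ratio was thus smallest at GGACT and largest at GGACC among these 6 motifs. In points it was largest at GGACT (-5.72, -7.42 to -3.82) and smallest at TGACT (-3.47, -4.58 to -1.98). The ratio of 3′ UTR to 5′ UTR was smallest at GAACT (1.80, with 1.89 at GGACT) and largest at GGACC (5.63). The classifier that made the list reads both motif and region. Its part in these ratios, and in the motif shares of the 5′ UTR sites above, was not tested. Within GGACT exons were split at 400 nt only. In exons of up to 400 nt 5.37% were listed (3.92 to 7.31%) against 4.96% in the CDS, a difference of 0.408 points (-1.13 to 2.41). In longer exons it was 16.5% (13.8 to 19.5%) against 37.4%. At TGACC 0 of 891 adenosines in 5′ UTRs were listed, which allows a share of up to 0.337% (3 counts of the total, as for every count of 0 here). The counts at TAACC (0 of 395, up to 0.759%) and TAACA (0 of 270, up to 1.11%) were also 0. The CDS shares were 0.295% at TGACC, 0.0581% at TAACC and 0.232% at TAACA. All lie within those limits, so the counts of 0 show no shortfall from the CDS. In the 3′ UTR the share at TGACC was 0.467% (0.334 to 0.651%), above the limit of 0.337%, though its interval reaches just below that limit. The 3′ UTR shares at TAACC (0.0667%) and TAACA (0.234%) lay within theirs.

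The 5′ UTR sites had low scores. Their median was 0.618 with quartiles of 0.554 and 0.688, against medians of 0.70 in the CDS and 0.787 in 3′ UTRs. A score of at least 0.7 was reached by 86 sites, 21.1% (17.4 to 25.3%), against 49.9% of CDS sites and 70.0% of 3′ UTR sites. Only 9 sites reached 0.8, and 0 of 408 reached 0.9, where a count of 0 allows a share of up to 0.735%. At 0.9 the CDS had 3.99% of its sites and the 3′ UTR 14.6%. At the low end, 96 sites (23.5%, 19.7 to 27.9%) scored under 0.55, close to the minimum of the list. The gap was present within a single motif: the median score of GGACT sites was 0.645 in 5′ UTRs, 0.757 in coding sequence and 0.864 in 3′ UTRs. For GGACC the medians were 0.580, 0.671 and 0.782. Among 5′ UTR motifs, GAACT (0.654, 59 sites), TGACT (0.652, 27 sites) and GGACT had the highest medians, and AGACA had the lowest of those with at least 5 sites (0.548, 7 sites). The classifier takes the region, the relative peak strength and the transitions as inputs, and the part of each in the differences was not tested.

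Genes with 5′ UTR sites had long 5′ UTRs. The median length was 432 nt over the 273 genes (quartiles 249 and 646 nt) and 166 nt over the 4392 genes with sites in the CDS or 3′ UTR only (quartiles 87 and 287 nt). A longer 5′ UTR holds more adenosines that could be listed, so selecting genes by a site there favours length by itself. Lengths in the 4392 genes also reach down to 0 nt, where no site is possible. The 5′ UTR was over 400 nt in 148 of the 273 genes, 54.2% (48.3 to 60.0%), and these longer 5′ UTRs carried 271 of the 408 sites. The listed share of DRACH adenosines also rose with length, from 1.46% in 5′ UTRs of up to 200 nt (1.09 to 1.95%) and 1.64% in those up to 400 nt (1.33 to 2.04%) to 3.45% in those up to 1000 nt (3.01 to 3.96%), with 3.34% beyond (2.62 to 4.26%). 5′ UTRs of over 400 nt thus had a higher share of their motifs listed. The sequence around the sites was GC-rich, with a median of 61.4% G or C over the adenosine and 50 nt on each side, against 55.4% at CDS sites and 53.5% at 3′ UTR sites. No comparison was made with unlisted adenosines of 5′ UTRs, so this does not set the sites apart within the region.

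Few sites lay close to the transcript start. They lay a median of 339.5 nt from it (quartiles 173 and 571 nt), and 23 sites were within 50 nt, 5.64% (3.79 to 8.32%). In the same 273 genes 6.56% of the 5′ UTR DRACH adenosines lay there, or 10.1% when each of the 272 genes with such an adenosine was weighted by its number of sites. The unweighted difference was -0.924 points (-3.07 to 1.92). Over the 4665 genes with any site, DRACH adenosines in the first 50 nt were listed at 0.860% (0.557 to 1.32%), those from 50 to 100 nt at 1.51% (1.09 to 2.09%), those up to 200 nt at 1.35% (1.03 to 1.78%) and those beyond 200 nt at 3.89% (3.47 to 4.36%). In 5′ UTRs of over 400 nt, 4 of 928 DRACH adenosines in the first 100 nt were listed, 0.431% (0.168 to 1.10%). The share there was 1.67% up to 200 nt (1.07 to 2.59%), 3.54% up to 400 nt (2.85 to 4.40%) and 4.81% farther in (4.12 to 5.59%). Toward the start codon of the same long 5′ UTRs it rose from 1.78% more than 400 nt upstream (1.35 to 2.33%) to 5.14% in the last 100 nt (4.06 to 6.48%). Over 5′ UTRs of all lengths the last 100 nt had 2.69% (2.30 to 3.15%), above the same 1.78% by 0.917 points (0.240 to 1.54) but not detectably different from the 2.68% at 200 to 400 nt before the start codon (0.013 points, -0.700 to 0.682). Across the start codon the share went up to 3.87% in the first 50 nt of the CDS (3.29 to 4.55%) and reached 5.83% (5.39 to 6.31%) 400 to 500 nt into it.

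Measured from the start codon, the sites lay a median of 136.5 nt upstream, 161 of them within 100 nt (39.5%, 34.8 to 44.3%) and 32 more than 500 nt away. In the same 273 genes, 23.5% of 5′ UTR DRACH adenosines lay within 100 nt, or 31.6% with the weighting by sites. The unweighted difference was 16.0 points (11.0 to 21.1). The first exon held 293 sites, 71.8% (67.3 to 76.0%), exon 2 held 87 and later exons 28. First exons held 70.4% of the DRACH adenosines, or 76.4% with that weighting. The unweighted difference was 1.39 points (-3.52 to 5.95), and its sign depended on the weighting. Exons that also hold the start codon carried 355 of the sites, 87.01% (83.4 to 89.9%), against 75.2% of the DRACH adenosines, or 81.5% with the weighting, and the unweighted difference was 11.8 points (7.81 to 15.2). Within 100 nt of a splice junction lay 71 sites, 17.4%, against 22.1% of the DRACH adenosines (22.05% weighted), with an unweighted difference of -4.69 points (-8.48 to -0.381).

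Windows of the sites closest to the start codon are printed to show how the motif abuts the ATG. Within 10 nt of it 1.96% of the DRACH adenosines were listed (1.19 to 3.21%), against 2.50% elsewhere in the 5′ UTR, a difference of -0.544 points (-1.36 to 0.726). Each line gives 21 nt of GRCm38 read on the strand of the gene, 5′ to 3′, with the pentamer around the predicted adenosine in capitals. Of the 16 sites within 10 nt of the start codon, 8 lay exactly 3 nt before the A of ATG, the position where a purine favours initiation. That position was singled out after the values were seen. Among DRACH adenosines there, 7 of 164 were listed, 4.27% (2.08 to 8.55%), against 8 of 602 at the other places within 10 nt, 1.33% (0.675 to 2.60%), a difference of 2.94 points (0.411 to 7.27). The closest site of all lay 2 nt before the ATG of Dolk, which makes the lipid carrier dolichol phosphate. The next 4 by score lay 3 nt before it, in Arl14ep, in Mbtps1, which encodes the protease that activates SREBP transcription factors, in 1700025G04Rik, and in Arpc1b, a subunit of the actin-nucleating Arp2/3 complex.
Dolk chr2:30286023-30286043 minus strand: agacctagAGACAtgacccga
Arl14ep chr2:106969487-106969507 minus strand: agaatcaaGGACGatggatcc
Mbtps1 chr8:119547555-119547575 minus strand: ttcactgaGGACCatgaagct
1700025G04Rik chr1:152006631-152006651 minus strand: accgaatgAGACTatgggctg
Arpc1b chr5:145121663-145121683 plus strand: gagacaagTGACTatggccta
Their scores were 0.564, 0.753, 0.690, 0.667 and 0.627 in this order. The Dolk site is in exon 1, the Mbtps1 site in exon 3 and the others in exon 2, and Arl14ep reads GGACG, which is not a DRACH motif.

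At the other end, 3 sites lay within 10 nt of the annotated start and 0 of 408 at the first nucleotide, a count that allows a share of up to 0.735%. The windows of the 5 sites nearest to the start are printed because a cap-adjacent m6Am could be met there. The Tnfaip2 site was at nucleotide 2 of the transcript, Stap1 at 3, Rpl37a at 9, Srebf1 at 13 and Gpr137 at 19. Copb1 also had a site at nucleotide 19, and the tie was broken by the higher score. Windows of the first 3 begin before the annotated start, so their first bases are genomic and not part of the annotated mRNA.
Tnfaip2 chr12:111442649-111442669 plus strand: cagggtcgGGACTaaggcgtc
Stap1 chr5:86071738-86071758 plus strand: tcctctttGAACAgttgcctc
Rpl37a chr1:72711288-72711308 plus strand: tcctcttcGGACTtgggcttg
Srebf1 chr11:60220582-60220602 minus strand: tttccgggGAACTtttcctta
Gpr137 chr19:6941165-6941185 minus strand: aaggccagGGACTctgtgcca
These adenosines sat in GGACT in Tnfaip2, a gene induced by tumour necrosis factor, in Rpl37a, which encodes a ribosomal protein, and in Gpr137. They sat in GAACA in the adaptor gene Stap1 and in GAACT in Srebf1, the lipid synthesis regulator SREBP-1. The first G of the Tnfaip2 pentamer lies before the annotated start, and this site is in no exon of a RefSeq curated mRNA. The scores of the first 4 were between 0.530 and 0.598, and Gpr137 had 0.796. The 23 sites within 50 nt of the start had a median score of 0.546, below the 0.618 of all 5′ UTR sites. When any annotated start of the gene was used instead of that of the chosen transcript, 56 sites (13.7%, 10.7 to 17.4%) were within 50 nt. The authors trained the classifier to tell peaks reduced in Mettl3 knockout mouse embryonic stem cells from unchanged ones. In those cells they saw signal at transcript starts that did not respond to the knockout, and they propose m6Am as its likely source. The low counts near the start in the list thus say nothing on how common m6Am is. Whether any of these sites carries m6Am was not tested.

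Upstream open reading frames (uORFs), read from the sequence as an ATG in the 5′ UTR followed in frame by a stop codon, held 120 of the sites, 29.4% (25.2 to 34.0%), in 93 genes. Of these sites, 100 lay in a uORF that ends before the start codon, 20 in one that overlaps the CDS out of frame and 4 in a frame that extends the CDS, some in more than 1 kind. DRACH adenosines of the same 5′ UTRs lay in uORFs at 30.3% (28.5 to 32.2%), or at 26.9% when weighted by the sites of the gene. The unweighted difference was -0.903 points (-5.53 to 4.05), and its sign depended on the weighting. Over the 4665 genes, 2.40% of DRACH adenosines in a uORF were listed (2.00 to 2.87%) and 2.51% of those in none (2.23 to 2.82%). These frames come from the reference sequence, and their translation was not measured. Most sites of a few genes sat in uORFs, among them all 4 of Brd2, 5 of 8 in Pcdh7 and 4 of 5 in Mbtps1.

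Most genes had a single site. Of the 273 genes, 189 had 1 (69.2%, 63.5 to 74.4%), 59 had 2, 11 had 3 and 14 had at least 4, and those 14 held 68 sites, 16.7%. Neighbouring 5′ UTR sites of a gene lay a median of 60 nt apart (quartiles 31 and 135 nt). Another listed site lay within 100 nt of 166 sites, 40.7% (36.0 to 45.5%), less often than in the CDS by -14.2 points (-19.0 to -9.30) and than in the 3′ UTR by -26.1 points (-30.8 to -21.1). The density of sites is also lower in the 5′ UTR, and these differences were not adjusted for it. Genes with more sites also had a higher best score, with a median of 0.606 for the genes with 1 site, 0.679 for those with 2 and 0.734 for the 25 with at least 3. A best score over more sites is higher by construction.

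Pcdh7, which encodes an adhesion protein of the protocadherin family, had the most 5′ UTR sites. All 8 lay in exon 1 on the plus strand of chromosome 5, between positions 57718132 and 57718883, and the same exon reaches far into the CDS, with a length of 4312 nt. The 5′ UTR is 1138 nt long, and the first and last sites lay 973 and 222 nt before the start codon. Scores ran from 0.566 to 0.797. The CDS held 17 more sites and the 3′ UTR 0. Ptp4a3, a phosphatase gene of the PRL family, had 7 sites in exon 2, on the plus strand of chromosome 15 from 73751333 to 73751849, with scores from 0.504 to 0.696. A pair of them was 5 nt apart, in GGACA and GGACT. Cdkn2c, which encodes an inhibitor of the cyclin D kinases, had 6 sites in exon 1 on the minus strand of chromosome 4 from 109665698 to 109666475, in a 5′ UTR of 1591 nt. One of them, in AAACT, reached 0.805, and the other 5 lay between 0.520 and 0.684. Gpat4, an acyltransferase gene of glycerolipid synthesis, also had 6, all in exon 2 on the minus strand of chromosome 8 from 23190943 to 23191291, 3 of them in uORFs. Its CDS had 0 sites and its 3′ UTR had 5.

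Mbtps1 had 5 sites in exon 3, on the minus strand of chromosome 8 from 119547565 to 119547818, with a pair of GGACT sites 9 nt apart. Of 9 genes with 4 sites each, the 5 with the highest best score complete the top 10. Tgfb1, which encodes the cytokine TGF-β, had them in exon 1 on the plus strand of chromosome 7 from 25687286 to 25687557, all more than 300 nt before the start codon. Man1c1, a Golgi mannosidase gene, had them in exon 1 on chromosome 4, and St3gal2, a sialyltransferase gene, in exon 2 on chromosome 8. Hexim1 and Jun have a single exon, so no splice junction lies near their sites. Hexim1, which encodes an inhibitor of the elongation factor P-TEFb, also had 4 CDS and 3 3′ UTR sites, and Jun, a subunit of the transcription factor AP-1, had 3 and 9. In 6 of these 10 genes the sites were in exon 1 and in the other 4 in a single later exon. The window of the highest-scoring site of each of the 10 genes is printed to show the sequences behind these clusters, with the pentamer in capitals.
Pcdh7 chr5:57718799-57718819 plus strand: tgtcccgtGAACTgtgagtac
Ptp4a3 chr15:73751839-73751859 plus strand: atctcactGGACTtggtgtgg
Cdkn2c chr4:109666465-109666485 minus strand: tacaaaagAAACTgtcagctg
Gpat4 chr8:23191001-23191021 minus strand: gatgacatGAACTttgagatg
Mbtps1 chr8:119547799-119547819 minus strand: gactcagtGGACTcggcctca
Tgfb1 chr7:25687276-25687296 plus strand: aagttttgAGACTtttccgct
Man1c1 chr4:134703521-134703541 minus strand: acccttgaGGACTctgaggac
St3gal2 chr8:110957401-110957421 plus strand: gctgagatGGACTgacctctg
Hexim1 chr11:103116586-103116606 plus strand: aacccattGGACTtaaacctc
Jun chr4:95051378-95051398 minus strand: tcctaaacAAACTttgttaca
Their scores ran from 0.696 in Ptp4a3 to 0.805 in Cdkn2c, and each was in a DRACH motif ending in T.

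The 10 genes with the highest single scores were mostly others. Fuca1, a lysosomal fucosidase gene, had 0.830, in a 5′ UTR of only 69 nt and 8 nt from the start codon. Tsc22d4, of the TSC22 domain family, reached 0.827 at the first of 2 sites. Ddx6, an RNA helicase of processing bodies, had 0.819 in exon 2 and 3 more sites in the 3′ UTR. Srsf2, a splicing factor gene, had 0.814, with 0 sites in the CDS. In Csnk1g2, a casein kinase 1 gene, the site with 0.812 lay 4 nt before the start codon and 8 nt from the next listed site. Dok2, an adaptor of tyrosine kinase signalling in myeloid cells, had 0.805, at a position that is in no exon of a RefSeq curated mRNA. Pa2g4, a growth regulator that binds ribosomes, had 0.802, and Cdkn2c and Pcdh7 were also among the 10. These sites share no place in the 5′ UTR, since they lay from 4 to 877 nt before the start codon. The windows of the 7 genes not yet shown are printed because they are among the best-scored 5′ UTR sequences of the list.
Fuca1 chr4:135920786-135920806 plus strand: tgggctgtGGACTctgggatg
Tsc22d4 chr5:137746089-137746109 plus strand: cactcaagGGACTggagccag
Ddx6 chr9:44607309-44607329 plus strand: agcctcatAAACTgttattac
Srsf2 chr11:116853008-116853028 minus strand: acccacgaGGACTgtagctac
Csnk1g2 chr10:80634441-80634461 plus strand: ggtaccacAAACTtatggatt
Dok2 chr14:70774350-70774370 plus strand: gaggaaatGAACTagagagaa
Pa2g4 chr10:128565900-128565920 minus strand: gatcgaagAGACTctagctac
All 7 pentamers end in ACT: 3 are GGACT, 2 are AAACT, 1 is GAACT and 1 is AGACT. Across all 408 sites AAACT was found at 17.

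Outside DRACH lay 23 sites, 15 of them at GGACG. This pentamer held 3.68% of 5′ UTR sites, against 2.56% in the CDS (difference 1.12 points, -0.356 to 3.44) and 1.27% in the 3′ UTR (2.40 points, 0.942 to 4.71). The 23 sites had a median score of 0.576, below the 0.623 of DRACH sites in the 5′ UTR. The 5 with the highest scores were all GGACG, in Arl14ep, whose window is given above, and in Sqle, Ten1, Acsl5 and Slc1a5, whose windows follow to show the G after the motif's C.
Sqle chr15:59315172-59315192 plus strand: gctctgaaGGACGctcatccg
Ten1 chr11:116198913-116198933 plus strand: cgccggacGGACGaatcccct
Acsl5 chr19:55254023-55254043 plus strand: gcctgcatGGACGctctgaag
Slc1a5 chr7:16781839-16781859 plus strand: ggtcctaaGGACGtcacacct
Sqle encodes squalene epoxidase of cholesterol synthesis and scored 0.710. Ten1, of the CST complex at telomeres, scored 0.674, Acsl5, a fatty acyl-CoA synthetase gene, 0.668 and Slc1a5, the glutamine transporter, 0.666. All 4 sites lay in exon 1.

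Gene lists tied to the known roles of 5′ UTR m6A gave few members. Among genes with at least 1 site in an exonic region, 5.85% of all had a 5′ UTR site, and the lists are read beside that. Except for the ribosomal protein and Zfp lists, which were drawn by gene name, they are hand-picked and do not cover their classes, so their counts hold for the listed genes alone. Of the heat shock proteins and chaperones, 16 of 28 had a site anywhere and 1 of those, Hspe1, had one in the 5′ UTR. Hspe1, the mitochondrial co-chaperonin, had its only site there, 68 nt before the start codon with a score of 0.647. Of the genes controlled by uORFs or in the integrated stress response, 20 had a site and 2 a 5′ UTR site. Ppp1r15b, which encodes a regulatory subunit of the eIF2α phosphatase, had 2 sites 36 nt apart inside a uORF, scored 0.563 and 0.593. Slc35a4, the other, was named after its values were seen, with a score of 0.526 inside a uORF, at a position that is CDS in another transcript of the gene. Of the writers, erasers and readers of m6A and m6Am, 13 had a site and only the demethylase gene Alkbh5, also named after its values were seen, had one in the 5′ UTR, with a score of 0.523. The small counts leave wide intervals, such as 1.11 to 28.3% for the heat shock list and 2.79 to 30.1% for the uORF list.

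Immediate early and feedback genes had 5′ UTR sites in 3 of 23 genes with a site, which were Jun, Klf4 and Dusp4. Klf4, a zinc finger transcription factor gene, had a TGACT site 66 nt before the start codon (0.678). Dusp4, a MAP kinase phosphatase gene, had 2 (0.513 and 0.649), neither in an exon of a RefSeq curated mRNA. Of the macrophage and innate immune regulators, 34 had a site and only Tlr2, the receptor for bacterial lipoproteins, had one in its 5′ UTR. The Tlr2 site was a GGACT in exon 2 with a score of 0.711, inside uORFs and 144 nt before the start codon, and the CDS of the same transcript held 18 sites. The share of 1 in 34, 2.94%, had an interval of 0.521 to 14.9% that includes the 5.85% of all genes.

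Translation initiation factors had 5′ UTR sites in 4 of 32 genes. Eif6, which keeps ribosomal subunits apart, had its only 2 sites in the 5′ UTR, both GGACT and 43 nt apart, with scores of 0.747 and 0.773. Eif5, the GTPase activator of start codon recognition, had a GAACT in exon 3 (0.673) inside a uORF that overlaps the CDS. Pabpc1, the poly(A)-binding protein, scored 0.609 and Abcf1 0.546. Cytosolic ribosomal protein genes had 4 of 29, Rpl27, Rpl37a, Rpl41 and Rps21. Rpl27 (0.675), Rpl37a and Rps21 (0.668) had no other site on the transcript, and the Rpl27 site is in no exon of a RefSeq curated mRNA. The initiation factor share of 12.5% (4.97 to 28.1%) and the ribosomal share of 13.8% (5.50 to 30.6%) both had intervals that include 5.85%.

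Chromatin regulators had 5′ UTR sites in 4 of 52 genes. Brd2, a bromodomain reader of acetylated histones, had 4 sites in a 5′ UTR of 1708 nt, with scores from 0.537 to 0.683. The acetyltransferase gene Ep300 had 2 (0.518, in no exon of a RefSeq curated mRNA, and 0.576), Kat6a, another acetyltransferase gene, had 1 (0.531), and the deacetylase gene Hdac5, named after its values were seen, had 1 (0.502). Of the 60 listed ubiquitin ligases and proteases, 38 had a site and 4 of those a 5′ UTR site, while others outside the list, such as Herc4 and Ube4b, also had one. Keap1, the adaptor that targets NRF2 for degradation, had the highest score of these 4 at 0.757, 25 nt before the start codon in a 5′ UTR of 1104 nt. Rnf4, Ubr2 and Rnf168 had 1 site each, between 0.535 and 0.553. Zfp zinc finger genes had 5 of 77, of which Zfp740 had 3 sites and none elsewhere, and Zfp146 had 3 with 1 at the non-DRACH motif GAACG. Zfp664, Zfp652 and Zfp217 had 1 each. No list had an interval that excluded the share of all genes.

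Windows of 8 genes of these lists are printed, the highest-scored site of each, because they join a 5′ UTR site to a gene of known translational, stress or immune role, a choice made with their values known.
Eif6 chr2:155826622-155826642 minus strand: agctgttgGGACTctgggcgg
Keap1 chr9:21237724-21237744 minus strand: tagcagagGAACTgtgtcttg
Tlr2 chr3:83841007-83841027 minus strand: ggaggtgcGGACTgtttcctt
Brd2 chr17:34119533-34119553 minus strand: acgccttgGAACTggagtttg
Klf4 chr4:55531927-55531947 minus strand: atcttcgtTGACTttggggct
Eif5 chr12:111539500-111539520 plus strand: gagaccgaGAACTcttgcagt
Hspe1 chr1:55088332-55088352 plus strand: ggccagcaGGACTctccttgc
Ppp1r15b chr1:133131654-133131674 plus strand: caaggcggAGACTgtgtagac
The capitals again mark the pentamer centred on the predicted adenosine, and all 8 are DRACH motifs.

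Most genes with a 5′ UTR site had sites elsewhere too. A site in the CDS or 3′ UTR of the same transcript was listed for 214 of the 273 genes, 78.4% (73.1 to 82.9%), with 169 having CDS sites, 137 having 3′ UTR sites and 92 both. The median number of such sites was 2 (quartiles 1 and 6), and it was 3 over the 4392 genes without a 5′ UTR site (quartiles 1 and 5), all of which have at least 1 by definition. The other 59 genes, 21.6% (17.1 to 26.9%), had sites in the 5′ UTR alone. In 77 genes the 5′ UTR held more sites than the CDS and 3′ UTR together.

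Few sites fell in another region in other annotated transcripts. In 406 of 408 sites, 99.5% (98.2 to 99.9%), every coding transcript that has the position in an exon has it in the 5′ UTR, and in the other 2 the position is CDS in another transcript. The position was exonic in every coding transcript of the gene for only 196 sites, 48.0% (43.2 to 52.9%), and in the rest at least 1 coding transcript of the gene lacks it. For 105 sites, 25.7% (21.7 to 30.2%), the gene has 1 coding transcript, so both shares are fixed for them. The 99.5% is also fixed wherever only the chosen transcript has the position in an exon. It was 96.2% with the longest transcript by span and 97.4% with the longest spliced one. Among RefSeq curated mRNAs, 388 sites (95.1%, 92.6 to 96.8%) were in a 5′ UTR and 20 in no exon. Which isoforms RAW264.7 cells express was not analysed here.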

How the data were processed

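Poly(A)+ RNA of untreated RAW264.7 cells was profiled by miCLIP2 in 3 replicates. The submitters' processing notes name STAR 2.7.3a, SAMtools 1.9, UMI-tools 1.0.0, bedtools 2.27.1 and the builds mm10 and GRCm38.p6. The authors mapped the reads, removed duplicates by molecular identifier, set reads with C-to-T transitions apart, kept PureCLIP peaks found in at least 2 of the 3 replicates and scored those at A with m6Aboost. The deposited unit is this score, 1 value per site in 1 list pooled over the replicates. No test across replicates was therefore possible and no replicate could be left out.

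BED starts were read as 0-based and positions are given 1-based. All sites lay at A in GRCm38. Regions came from GENCODE M21, whereas the authors used M23, and the stop codon was counted with the CDS. Distances were measured on spliced transcripts, and motifs were read as the 5 genomic bases around the site. Listed shares of DRACH adenosines used the transcripts of genes with a site, without positions in overlapping genes. Shares have 95% Wilson and differences 95% Newcombe intervals, which cover counting error, since sites of 1 list do not replicate one another. For a count of 0 the upper limit given is 3 counts of the total, not the Wilson limit. Alternatives were minimum scores, collapsed neighbours, 1 site per gene, other transcripts and other distances. Named genes were the 10 with most sites, the 10 with the highest scores, the 25 best-scored members of the gene lists with 3 more named after their values were seen, the 5 sites nearest to the transcript start and to the start codon, and the 5 best-scored non-DRACH sites. Members and lists were chosen with earlier results of these data known. Calculations used Python 3.11.15, NumPy 2.4.6, SciPy 1.17.1 and pysam 0.24.0, and placement on transcripts and reading frames was tested on constructed examples. Of the 10 genes with the highest scores, 1 is not reported here.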

Additional observations from a re-analysis of the deposited data

How the results depend on the processing

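Of 86 alternative values over 9 results, 63 stayed within the interval of the reported value or, for the count of sites, within 1.5 times it. None of these results was a site density, a listed share of DRACH adenosines or a comparison between regions. With a minimum score of 0.6 the list kept 236 5′ UTR sites, 97.0% at DRACH, with a median score of 0.676 and 3.39% within 50 nt of the transcript start. With a minimum of 0.7 it kept 86 sites, 97.7% at DRACH, with a median of 0.748, 3.49% within 50 nt of the start, 66.3% in the first exon, 36.0% in a uORF and 100% in the 5′ UTR of every coding transcript. The higher medians follow from the minimum itself, and the cause of the other shifts was not tested. With 1 site per gene, taken by score, the median was 0.645 and 48.7% lay within 100 nt of the start codon. The share in the 5′ UTR of every coding transcript was 96.2% on the longest transcript by span and 97.4% on the longest spliced one, and 100% by construction when it was required. The motif RRACH held 86.8%. Within 20 nt of the transcript start lay 1.47%, within 100 nt 15.2%, and within 50 nt of any annotated start 13.7%. Within 50 nt of the start codon lay 22.5% and within 200 nt 62.5%, and uORFs ending before the start codon held 24.5%. Requiring a 5′ UTR of a RefSeq curated mRNA, an alternative chosen after seeing the data, left 388 sites, and none of the 6 values recomputed on it moved beyond those limits.

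No paired analysis was possible because 1 list pools the 3 replicates of 1 condition. The list gives no coverage and no rejected peaks. For an adenosine that is not listed, lack of methylation, low expression, low coverage and rejection by the classifier thus cannot be told apart. Coverage near annotated starts against that farther in was not tested. The share of DRACH adenosines depends on the annotated start of 1 transcript per gene. Scores near 0.5 are close to the minimum, and 42.2% of the 5′ UTR sites scored under 0.6.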
